A study of Rattus norvegicus with 16 samples.

Results

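The genes described here are the kinases of the mitogen-activated protein (MAP) kinase cascade, measured as messenger RNA in the rat gustatory cortex after drinking. They were chosen by a rule on names, as every gene with the symbol Mapk, Map2k, Map3k or Map4k followed by a number. Each had to lie on a probe set that the array annotation pairs with exactly 1 gene. Earlier results of these data were known when the genes were chosen. The rule found 34 genes on 35 probe sets, out of 14497 genes on 15209 probe sets tested. They comprise 11 Mapk, 7 Map2k, 12 Map3k and 4 Map4k genes. The current rat RefSeq annotation (GRCr8) lists 43 genes with such symbols, and the other 9 were not analysed here. Only Map3k14 had more than 1 probe set, and each gene is given by its brightest one.

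The arrays (Affymetrix RaGene 1.1 ST v1) came from 16 Wistar Hola male rats, 1 array per rat, whose age is 10 to 16 weeks in the methods and 2 months in the labels. All rats were water restricted and had learned over 3 days to take 20 ml of water in 20 min, and no drug or genetic change is named for any of them. On the test day they drank either water again or 0.1% saccharin, a taste unfamiliar to them, and the gustatory cortex, a part of the insular cortex, was taken 1 h or 3 h later. This gave 4 groups of 4 arrays, named by the taste and the time after it, such as saccharin 3 h. Arrays C365 to C372 were all 3 h arrays and C373 to C380 all 1 h arrays, so a difference that runs with these numbers and one of time cannot be told apart. The labels do not say what these numbers stand for.

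In the cascade, a MAP4K or another upstream signal activates a MAP3K, which phosphorylates a MAP2K, which in turn phosphorylates a MAP kinase on a threonine and a tyrosine of its activation loop. The ERK arm answers to growth factors and synaptic activity, and the JNK and p38 arms answer mainly to stress and cytokines. Phosphorylation of ERK in the insular cortex is well known from work on taste learning. The arrays measured messenger RNA, so they say nothing of the phosphorylation that switches these kinases on.

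Values are log2 intensities summarised by robust multi-chip average (RMA), and a difference is 1 h minus 3 h, or saccharin minus water. The 4 group means were fitted in limma, and a gene was called at a Benjamini-Hochberg adjusted p under 0.05 over all 15209 probe sets. Over the 16 arrays the members' mean levels ran from 4.19 for Mapk15 to 10.17 for Map2k1, and 30 of 34 were at least 5. All 34 were above 3.86, the level below which 95% of 1267 probe sets of chemosensory receptors lay. The SD of a member within a group of 4 was 0.0112 to 0.218, with a median of 0.0709. Array medians were 5.08 to 5.16, and the arrays correlated with each other at 0.994 to 0.997.

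Between 1 h and 3 h, 3 members changed, and all 3 were higher at 1 h. Map3k14, which encodes the NF-kB inducing kinase NIK, and Map2k3, a kinase of the p38 MAP kinases, passed the test after saccharin and over both tastes together. Map2k6, the other dedicated p38 kinase of the MAP2K tier, passed over both tastes only. After saccharin, 2 of 34 members were called, against 0.348% of all probe sets tested. Over both tastes 3 of 34 were called, against 1.01%. After water 0 of 34 were called, against 0.125%, and 4 of 34 had an unadjusted p under 0.05 in limma, against 7.23%. None of the members was called lower at 1 h in any comparison of time. The marker level of a neighbouring tissue, the striatum, also separated the times, and with it as a covariate 0 members were called, with differences of 0.47 for Map3k14 and 0.36 for Map2k3 after saccharin and of 0.27 for Map2k6 over both tastes.

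**Figure D1:**
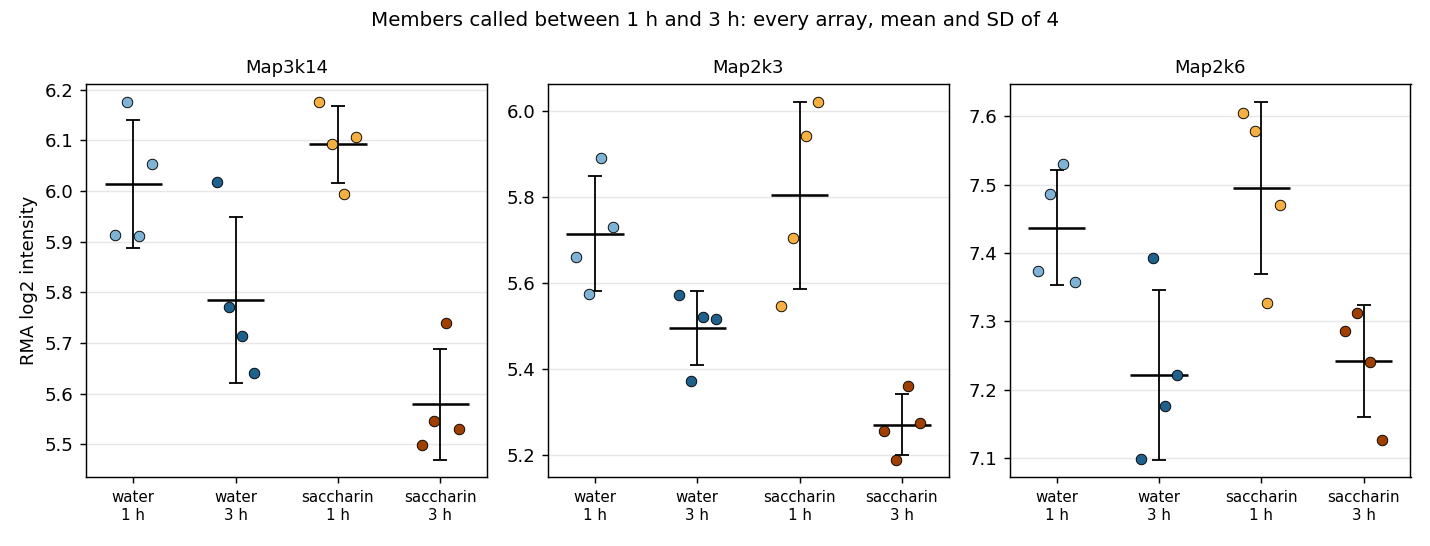
Log2 intensity of Map3k14, Map2k3 and Map2k6 on every array (points), with the mean (line) and SD (bars) of 4 arrays in each group, on axes that differ between genes and do not start at 0. Map2k3 on the saccharin 3 h arrays lay at 5.19 to 5.36, below every array of the other 3 groups.

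Map3k14 (probe set 10748021) stood at 6.18, 6.09, 5.99 and 6.11 on the saccharin 1 h arrays and at 5.50, 5.55, 5.74 and 5.53 on the saccharin 3 h arrays. The groups did not overlap, and the 3 lowest of all 16 values were on saccharin 3 h arrays. The difference was 0.51 (1.43-fold, SE 0.080, adjusted p = 0.00319 in limma), with a 95% interval of 0.35 to 0.68. The water 1 h arrays read 5.91, 6.18, 5.91 and 6.05, and the water 3 h arrays 6.02, 5.77, 5.71 and 5.64. Here array C365 at 3 h reached into the range of the 1 h arrays, and the difference of 0.23 (SE 0.080, adjusted p = 0.483) did not pass the test. Over both tastes the difference was 0.37 (SE 0.057, adjusted p = 0.00176, exact permutation p = 0.00122 within tastes, two-sided and unadjusted). A second probe set of Map3k14 (10748037) had a mean of 3.01, below the receptor background, and differed by only 0.07 (SE 0.048, adjusted p = 0.614) over both tastes. With both probe sets averaged, the difference after saccharin was 0.26 instead of 0.51 and still passed (adjusted p = 0.0252).

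Map2k3 (probe set 10734198), whose product phosphorylates the p38 kinases, stood at 5.55, 5.70, 5.94 and 6.02 on the saccharin 1 h arrays and at 5.26, 5.19, 5.36 and 5.27 on the saccharin 3 h arrays. The 1 h arrays were widely spread, with an SD of 0.218 against 0.071 at 3 h, yet the groups did not overlap. The difference was 0.53 (1.45-fold, SE 0.089, adjusted p = 0.00613), with a 95% interval of 0.35 to 0.72. Its values were 5.66, 5.58, 5.89 and 5.73 on the water 1 h arrays, while the water 3 h arrays gave 5.57, 5.37, 5.52 and 5.52. These groups also stood apart, though only just, and the difference of 0.22 (SE 0.089, adjusted p = 0.579) did not pass. Over both tastes it was 0.38 (SE 0.063, adjusted p = 0.00438, exact permutation p = 0.000408, the smallest this design allows).

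Map2k6 (probe set 10739334), which acts beside Map2k3 on the same p38 substrates, stood at 7.60, 7.58, 7.33 and 7.47 on the saccharin 1 h arrays and at 7.29, 7.31, 7.24 and 7.13 on the saccharin 3 h arrays. On the water 1 h arrays it read 7.37, 7.49, 7.53 and 7.36, and on those of water 3 h 7.10, 7.39, 7.18 and 7.22. The groups were apart after saccharin and overlapped after water through the 3 h array C367. Its differences were close in size in both tastes, 0.25 (SE 0.071, adjusted p = 0.230) after saccharin and 0.21 (SE 0.071, adjusted p = 0.456) after water. Over both tastes the difference was 0.23 (1.18-fold, SE 0.050, adjusted p = 0.0287, exact permutation p = 0.00204). This call was lost without any 1 of 9 arrays (C365, C369, C370, C372, C374, C375, C376, C377 or C380), where the adjusted p was 0.0519 to 0.0716, and in a fit over all 28826 probe sets (0.0649).

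After saccharin, 4 members had groups that did not overlap (Map2k3, Map2k6, Map3k1 and Map3k14), against 4.78% of all probe sets. After water only Map2k3 did, against 4.35%. Over both tastes, none of the members separated all 8 arrays of 1 h from all 8 of 3 h, as 0.434% of probe sets did. At the cut-off of the study's methods, which sets a limit on the unadjusted p and a minimum fold change, 2 members passed after saccharin (Map2k3 and Map3k14) and 0 after water, where 0.750% and 0.572% of all probe sets passed. At an unadjusted p under 0.05, 7 members passed after saccharin, against 7.98% of all probe sets, which were Map2k3, Map2k6, Map3k1, Map3k4, Map3k8 and Map3k14, all higher at 1 h, and Map4k2, lower at 1 h. Over both tastes 7 of 34 members had an unadjusted p under 0.05 in limma, 5 of them higher and 2 lower at 1 h, as had 1827 of all 15209 probe sets.

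**Figure D2:**
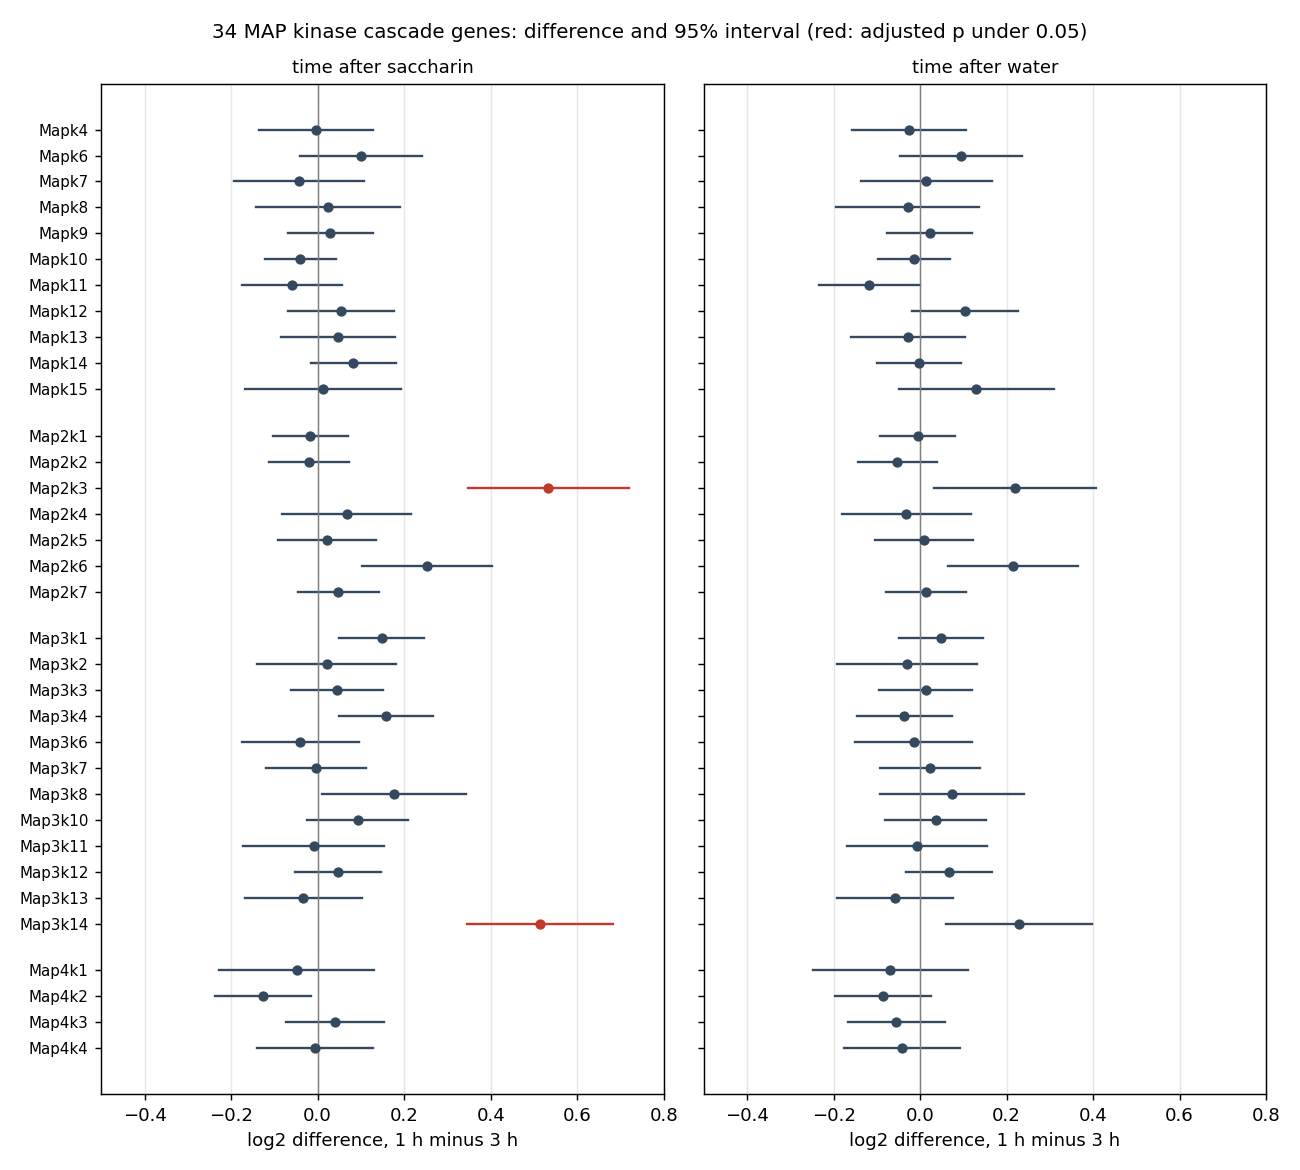
Log2 difference between 1 h and 3 h (point) with its 95% interval (line) for all 34 members, by tier, after saccharin and after water. Red marks an adjusted p under 0.05, which Map2k3 and Map3k14 reached after saccharin, and 31 of 34 members stayed within 0.2 of 0 in each taste.

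The promoters of the 3 called genes are shown because each was called higher at 1 h over both tastes and all lie on chromosome 10. That chromosome holds 7 of the 34 members. Of all genes tested that could be placed, 8.59% lie on that chromosome, as do 13 of 152 genes called for time over both tastes (8.55%). The sequences are from RefSeq, build GRCr8, and run from 250 bases before to 50 bases after the annotated start, 5′ to 3′ on the gene's strand. Map3k14 lies on the minus strand (chr10:88715543-88715842), and Map2k3 (chr10:46107389-46107688) and Map2k6 (chr10:95872497-95872796) on the plus strand. Capitals mark CCAAT and the GC box GGGCGG on either strand, 2 common promoter elements that were added to the search after the values had been seen.
Map3k14: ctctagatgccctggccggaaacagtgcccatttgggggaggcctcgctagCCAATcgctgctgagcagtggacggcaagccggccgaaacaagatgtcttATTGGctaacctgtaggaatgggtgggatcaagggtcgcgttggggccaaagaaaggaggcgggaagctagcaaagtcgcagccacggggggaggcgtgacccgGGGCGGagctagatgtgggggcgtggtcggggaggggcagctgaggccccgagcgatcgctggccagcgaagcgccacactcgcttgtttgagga
Map2k3: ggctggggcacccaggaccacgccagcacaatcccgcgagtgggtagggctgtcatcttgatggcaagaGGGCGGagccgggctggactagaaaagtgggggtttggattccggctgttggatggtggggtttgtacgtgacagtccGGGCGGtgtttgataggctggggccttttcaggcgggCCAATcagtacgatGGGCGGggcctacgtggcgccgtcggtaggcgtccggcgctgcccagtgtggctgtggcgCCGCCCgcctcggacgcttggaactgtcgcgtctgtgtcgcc
Map2k6: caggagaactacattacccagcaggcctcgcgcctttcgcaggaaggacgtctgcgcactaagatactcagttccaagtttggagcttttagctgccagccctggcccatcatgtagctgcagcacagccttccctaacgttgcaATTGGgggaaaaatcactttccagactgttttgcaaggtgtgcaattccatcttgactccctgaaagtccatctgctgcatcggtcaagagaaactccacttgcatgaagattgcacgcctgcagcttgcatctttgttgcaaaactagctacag
CCAAT was found in all 3 promoters, in 12 of 31 member promoters and in 37.5% of 33469 promoters of this length. The GC box was found once in Map3k14, at 4 places in Map2k3 and not in Map2k6, in 23 of 31 member promoters and in 33.1% of all promoters. GC content was 63.7% in Map3k14, 66.0% in Map2k3 and 50.3% in Map2k6, against a median of 51.7%.

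Elements tied to activity-induced transcription were searched on both strands in the same windows. These were the cAMP response element TGACGTCA (1.83% of all promoters), its shorter core TGACG, which the full element contains (21.2%), the AP-1 site TGACTCA (4.63%) and the Egr sites GCGTGGGCG (0.544%) and GCGGGGGCG (2.73%). The NF-kB site (2.06%) and the CArG box of serum response factor (1.64%) were searched by their usual consensus. None of them was found in the windows of Map3k14, Map2k3 or Map2k6. The core TGACG was found in 10 of 31 member promoters. Among the other members, the full cAMP response element was found in Map3k13 and Mapk10, the NF-kB site in Map3k8 and the CArG box in Map4k1. A match in these letters is a description and not a bound site.

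In the ERK arm, neither MAP2K was called. Map2k1, the ERK kinase MEK1 (probe set 10918209), stood at 10.24, 10.12, 10.20 and 10.17 on the water 1 h arrays, 10.17, 10.17, 10.18 and 10.23 at water 3 h, 10.17, 10.20, 10.11 and 10.14 at saccharin 1 h and 10.21, 10.19, 10.14 and 10.15 at saccharin 3 h. All 4 groups overlapped, and its difference over both tastes was -0.01 (SE 0.029, adjusted p = 0.938), with a 95% interval of -0.07 to 0.05. Map2k2, which encodes MEK2 (probe set 10900331), stood at 7.83, 7.92, 7.93 and 7.79 at water 1 h, 7.89, 7.94, 7.91 and 7.95 at water 3 h, 7.87, 7.91, 7.88 and 7.83 at saccharin 1 h and 7.88, 7.84, 7.93 and 7.90 at saccharin 3 h. Its difference was -0.04 (SE 0.031, adjusted p = 0.708). The atypical kinases Mapk6 (ERK3) and Mapk4 (ERK4) are not substrates of MEK1 and MEK2. Mapk6 had the largest difference of the Mapk tier over both tastes, 0.10 (SE 0.047, adjusted p = 0.427). Mapk4 (probe set 10805202) stood at 7.49, 7.44, 7.53 and 7.58 at water 1 h, 7.70, 7.53, 7.42 and 7.48 at water 3 h, 7.48, 7.30, 7.54 and 7.50 at saccharin 1 h and 7.47, 7.42, 7.52 and 7.42 at saccharin 3 h. It had the smallest p of the Mapk tier for taste over both times, with a difference of -0.07 (SE 0.044, adjusted p = 1.00). In the ERK5 arm, Map2k5 and its substrate Mapk7 differed over both tastes by 0.02 (SE 0.038) and -0.01 (SE 0.051).

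In the JNK arm, no member was called. Map2k4, which phosphorylates JNK and can also act on p38 (probe set 10743668), stood at 9.34, 9.34, 9.35 and 9.22 at water 1 h, 9.33, 9.38, 9.31 and 9.34 at water 3 h, 9.43, 9.32, 9.33 and 9.41 at saccharin 1 h and 9.40, 9.48, 9.28 and 9.05 at saccharin 3 h. The saccharin 3 h arrays held both its highest and its lowest value, and its difference over both tastes was 0.02 (SE 0.050, adjusted p = 0.943). Map2k7, the dedicated JNK kinase (probe set 10759538), stood at 7.19, 7.22, 7.12 and 7.20 at water 1 h, 7.18, 7.15, 7.17 and 7.17 at water 3 h, 7.26, 7.37, 7.19 and 7.22 at saccharin 1 h and 7.24, 7.20, 7.22 and 7.20 at saccharin 3 h. At 3 h the saccharin arrays (7.20 to 7.24) differed from the water arrays (7.15 to 7.18) by 0.05 (SE 0.044, adjusted p = 0.999 in limma). Over both times the difference by taste was 0.06 (SE 0.031, adjusted p = 1.00). For this difference over both times, the exact permutation test within times gave p = 0.00327 (two-sided, not adjusted for the 34 members). There limma gave an unadjusted p of 0.0597. Mapk8 (JNK1, probe set 10790418) stood at 7.93, 8.00, 8.01 and 7.63 at water 1 h, 7.80, 7.94, 7.98 and 7.97 at water 3 h, 8.05, 7.97, 7.97 and 7.87 at saccharin 1 h and 7.96, 8.05, 7.77 and 8.00 at saccharin 3 h. Water 1 h array C378 was its lowest, and its difference over both tastes was -0.00 (SE 0.056, adjusted p = 0.993). Mapk9 (JNK2) and Mapk10, the JNK3 of neurons, differed over both tastes by 0.03 (SE 0.033) and -0.03 (SE 0.028).

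In the p38 arm, the kinases downstream of Map2k3 and Map2k6 were not called, although both MAP2Ks were. Mapk14 (p38 alpha, probe set 10828762) stood at 7.92, 8.00, 7.92 and 7.96 at water 1 h, 7.99, 7.91, 7.97 and 7.94 at water 3 h, 7.93, 7.88, 7.97 and 8.06 at saccharin 1 h and 7.87, 7.91, 7.92 and 7.82 at saccharin 3 h. Its difference over both tastes was 0.04 (SE 0.033, adjusted p = 0.693), with a 95% interval of -0.03 to 0.11. Mapk11 (p38 beta, probe set 10906156) stood at 7.52, 7.38, 7.45 and 7.57 at water 1 h, 7.59, 7.66, 7.52 and 7.61 at water 3 h, 7.51, 7.43, 7.56 and 7.50 at saccharin 1 h and 7.45, 7.54, 7.67 and 7.58 at saccharin 3 h. Its difference of -0.09 (SE 0.039, adjusted p = 0.364), opposite in sign to those of Map2k3 and Map2k6, did not pass. Mapk12 (p38 gamma, probe set 10906142) stood at 5.86, 6.08, 5.98 and 6.05 at water 1 h, 5.91, 5.80, 5.85 and 6.00 at water 3 h, 5.84, 5.94, 5.87 and 6.00 at saccharin 1 h and 5.79, 5.87, 5.92 and 5.84 at saccharin 3 h. Its difference was 0.08 (SE 0.041, adjusted p = 0.469), and that of Mapk13 (p38 delta) was 0.01 (SE 0.044, adjusted p = 0.966). Mapk15, an atypical kinase and the dimmest member, differed by 0.07 (SE 0.060, adjusted p = 0.705). Over the 11 Mapk genes the differences after saccharin ran from -0.06 to 0.10, with a median of 0.02 beside 0.00 over all probe sets, and 0 of 11 had an unadjusted p under 0.05, against 7.98%. After water 1 of 11 did, against 7.23%, and this was Mapk11 with a difference of -0.12 (SE 0.055, adjusted p = 0.686).

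In the MAP3K tier, 11 of 12 genes were not called. Map3k1 (MEKK1), which acts mainly on the JNK arm, stood at 5.46, 5.55, 5.49 and 5.48 on the saccharin 1 h arrays and at 5.34, 5.36, 5.43 and 5.28 on the saccharin 3 h arrays. The groups did not overlap, yet the difference of 0.15 (SE 0.047, adjusted p = 0.319) did not pass. Map3k4 (MEKK4), a kinase of the p38 and JNK arms that binds Gadd45 proteins (probe set 10703075), stood at 7.49, 7.60, 7.59 and 7.55 at water 1 h, 7.57, 7.63, 7.63 and 7.53 at water 3 h, 7.76, 7.65, 7.57 and 7.66 at saccharin 1 h and 7.61, 7.50, 7.47 and 7.42 at saccharin 3 h. Its highest value was on saccharin 1 h array C375 and its 2 lowest on saccharin 3 h arrays C370 and C372. The difference was 0.16 (SE 0.052, adjusted p = 0.355) after saccharin and -0.04 (SE 0.052, adjusted p = 0.932) after water, and neither passed. Map3k8 (Tpl2), which activates ERK downstream of inflammatory receptors, differed after saccharin by 0.18 (SE 0.079, adjusted p = 0.592). The axonal injury kinases Map3k12 (DLK) and Map3k13 (LZK), the mixed lineage kinases Map3k10 and Map3k11, the cytokine-activated Map3k7 (TAK1) and Map3k2, Map3k3 and Map3k6 made up the rest. Over the 12 genes the differences after saccharin ran from -0.04 to 0.51, with a median of 0.05, and after water from -0.06 to 0.23.

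In the MAP4K tier, 0 of 4 genes were called. Over both tastes all 4 had differences below 0, but those of Map4k3 (-0.007, SE 0.038) and Map4k4 (-0.02, SE 0.045) were smaller than their SE. After saccharin Map4k3 was above 0 (0.04, SE 0.054). Map4k2 (germinal centre kinase, probe set 10713328) stood at 6.49, 6.65, 6.57 and 6.61 at water 1 h, 6.74, 6.60, 6.59 and 6.74 at water 3 h, 6.62, 6.59, 6.58 and 6.50 at saccharin 1 h and 6.72, 6.62, 6.76 and 6.69 at saccharin 3 h. Its difference over both tastes was -0.11 (SE 0.037, adjusted p = 0.225), which did not pass, and its groups overlapped in both tastes. Map4k3, linked to nutrient sensing (probe set 10888056), stood at 7.83, 7.84, 7.86 and 7.61 at water 1 h, 7.77, 7.82, 7.86 and 7.90 at water 3 h, 7.87, 7.84, 7.83 and 7.85 at saccharin 1 h and 7.84, 7.85, 7.76 and 7.77 at saccharin 3 h. Its interaction of taste and time was 0.10 (SE 0.076, adjusted p = 1.00). Map4k1, a kinase mainly of blood cells (probe set 10705679), stood at 4.88, 4.56, 4.78 and 4.74 at water 1 h, 4.93, 4.73, 4.93 and 4.65 at water 3 h, 4.77, 4.58, 4.68 and 4.69 at saccharin 1 h and 4.59, 4.65, 4.96 and 4.71 at saccharin 3 h. It was among the dimmest members, and its difference by taste over both times was -0.07 (SE 0.060, adjusted p = 1.00).

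**Figure D3:**
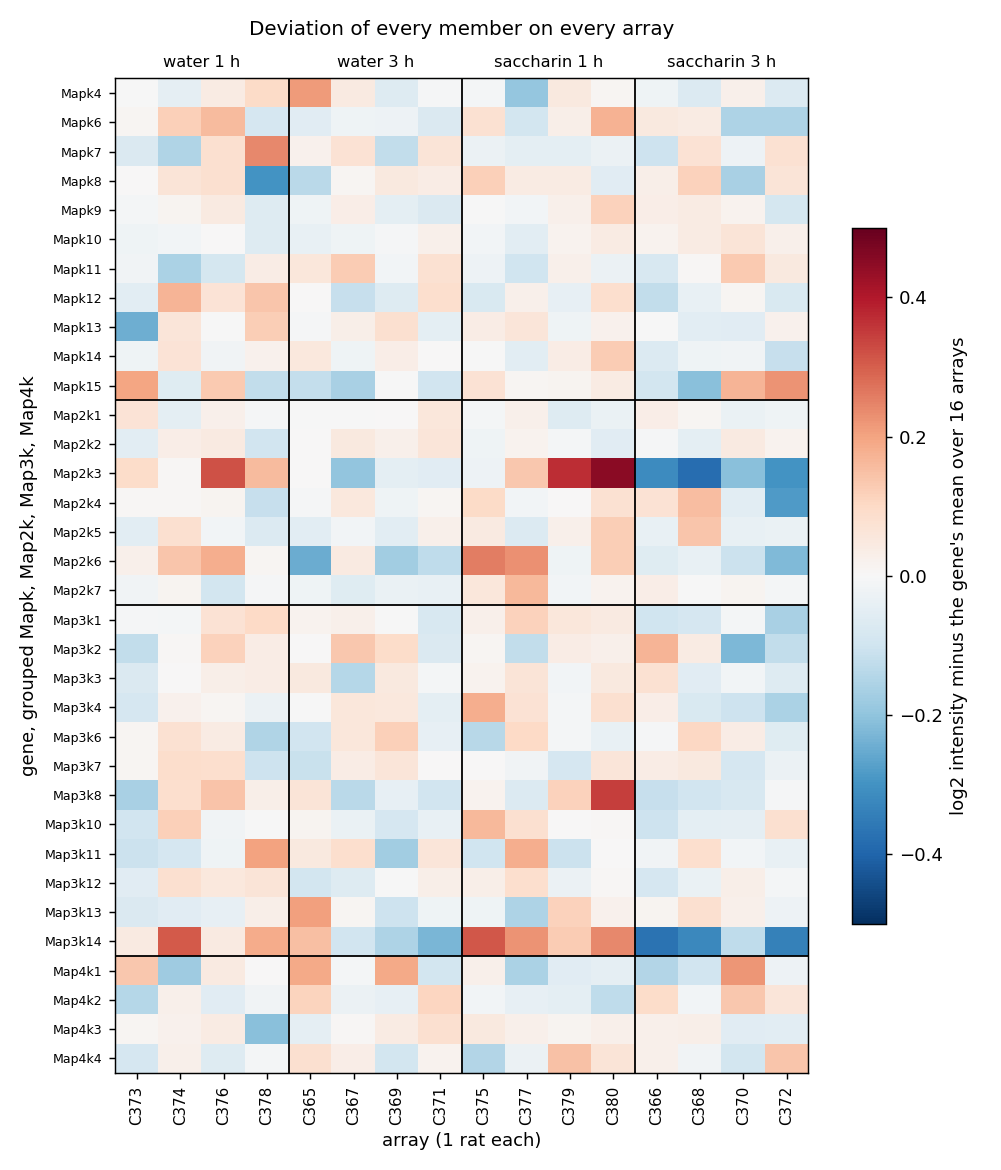
Deviation of each of the 34 members (rows, by tier) from its own mean over the 16 arrays (columns, by group), in log2 units from -0.5 (blue) to 0.5 (red). Map2k3 and Map3k14 were above their means on nearly all 1 h arrays and below them on every saccharin 3 h array, while most other members stayed pale in all 4 groups.

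By taste, 0 of 34 members were called at 1 h, at 3 h or over both times in limma, and 0% of all probe sets were. At an unadjusted p under 0.05, 0 members passed at 1 h (3.06% of all probe sets), 2 at 3 h (3.37%) and 0 over both times (3.39%). The 2 at 3 h lay lower after saccharin, with differences of -0.22 (SE 0.089, adjusted p = 0.999) for Map2k3 and -0.21 (SE 0.080, adjusted p = 0.999) for Map3k14. The Map2k3 arrays did not overlap (5.19 to 5.36 after saccharin against 5.37 to 5.57 after water), and those of Map3k14 did. The groups by taste did not overlap at 3 h for 2 of 34 members (Map2k3 and Map2k7), and at 1 h for 0. The share of all probe sets without overlap by taste was not computed, so these counts have nothing to be read against. At 1 h their differences by taste were 0.09 (SE 0.089) and 0.08 (SE 0.080). Over all 34 members the difference by taste ran from -0.08 to 0.10 at 1 h and from -0.22 to 0.12 at 3 h.

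The interaction, which asks whether the difference between 1 h and 3 h was larger after saccharin than after water, called 0 of 34 members and 0% of all probe sets. At an unadjusted p under 0.05 there were 3 members against 2.96% of all probe sets, all with a larger difference after saccharin. These were Map2k3 at 0.31 (SE 0.125), Map3k14 at 0.29 (SE 0.113) and Map3k4 at 0.19 (SE 0.074), each with adjusted p = 1.00. That Map2k3 and Map3k14 passed for time after saccharin and not after water is therefore not shown to be a difference between the tastes. For Map2k6 the interaction was 0.04 (SE 0.101), with a 95% interval of -0.17 to 0.25.

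Among the genes around the cascade, Dusp1, Dusp5 and Dusp6 were higher at 1 h. Over both tastes these 3 of 10 MAP kinase phosphatases were called, all higher at 1 h, against 1.01% of all probe sets. Dusp1, which removes phosphate from JNK and p38 as well as ERK, stood at 8.90 ± 0.17 (SD, n = 4) on the saccharin 1 h arrays and 7.23 ± 0.20 on the saccharin 3 h arrays, and read 8.88 ± 0.20 and 7.52 ± 0.41 at the same times after water. Its difference was 1.67 (SE 0.159, adjusted p = 2.61e-05) after saccharin and 1.36 (SE 0.159, adjusted p = 8.09e-04) after water. Dusp6, specific to ERK, and Dusp5, an ERK phosphatase of the nucleus, differed over both tastes by 0.66 (SE 0.085, adjusted p = 2.33e-04) and 0.33 (SE 0.066, adjusted p = 0.0163). The other 7 phosphatases ran from -0.06 to 0.10. The members and these phosphatases come from the same arrays, so the comparisons share all their samples.

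The other lists held no called gene for time. These were upstream Ras and Raf genes (14 measured of 17), scaffolds and adaptors (13 of 14), kinases activated by MAP kinases (8 of 11), other MAP3K and MAP4K relatives (12 of 14) and the noncanonical NF-kB pathway that Map3k14 serves (11 of 14). The last includes Nfkb2, the precursor that Map3k14 signalling leads to be processed. The differences of this list over both tastes ran from -0.09 to 0.07, with a median of 0.00. Of its 11 genes, 0 had an unadjusted p under 0.05, against 1827 of all 15209 probe sets. After saccharin the differences of this list ran from -0.26 to 0.11, with a median of 0.04. An unadjusted p under 0.05 was reached by 2 of 11, both lower at 1 h, against 7.98% of all probe sets. These were Birc3 (-0.26, SE 0.073, adjusted p = 0.230), whose mean of 3.34 lay below the receptor background, and Traf2 (-0.20, SE 0.070, adjusted p = 0.421), which encode parts of the complex that keeps NIK protein low. After water the differences of this list ran from -0.11 to 0.08, with 0 of 11 at that level, against 7.23%. The interaction ran from -0.34 to 0.18, with Birc3 and Traf2 at that level, against 2.96%, and 0 called. Rps6ka2, a ribosomal S6 kinase activated by ERK, had a difference over both tastes of -0.19 (SE 0.048, adjusted p = 0.0746) and did not pass. In these 5 lists, 0 genes were called by taste or for the interaction.

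The tissue carried markers of the main cell types of brain, and no list of markers particular to cortex was used. The mean of 8 neuronal markers lay between 9.96 and 10.14 on all arrays, and the means of astrocyte, oligodendrocyte, microglial and endothelial markers had ranges that overlapped between all groups. The marker means of 2 neighbouring tissues differed between the times, and their part in the results was not tested beyond the covariate fits given here. The mean of 12 leptomeningeal and fibroblast markers, 11 of them above the receptor background (Lum was not), was 6.29 to 6.60 at water 1 h and 6.02 to 6.41 at water 3 h. It was 6.34 to 6.64 at saccharin 1 h and 5.79 to 6.47 at saccharin 3 h, and 0 of the 12 were called. All 12 were higher at 1 h in both tastes, by a median of 0.35 after saccharin, where 10 had an unadjusted p under 0.05, and of 0.16 after water, where 3 did. These medians were larger after saccharin, as were the differences of Map2k3 and Map3k14, but 0 of the 12 had an unadjusted p under 0.05 for the interaction. The mean of 7 striatal markers, all above that background, moved the other way, with 6.06 to 6.26 on the 1 h arrays and 6.26 to 6.37 on the 3 h arrays. These ranges stood only just apart (6.258 against 6.260), and 1 of the 7 was called (lower at 1 h). The 7 markers did not move alike, with differences over both tastes from -0.49 to 0.04 and a median of -0.11. Of the 7, 1 was higher at 1 h, and 4 had an unadjusted p under 0.05 in limma, all lower at 1 h. In bulk tissue, fewer cells of a type and less RNA per cell cannot be told apart.

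**Figure D4:**
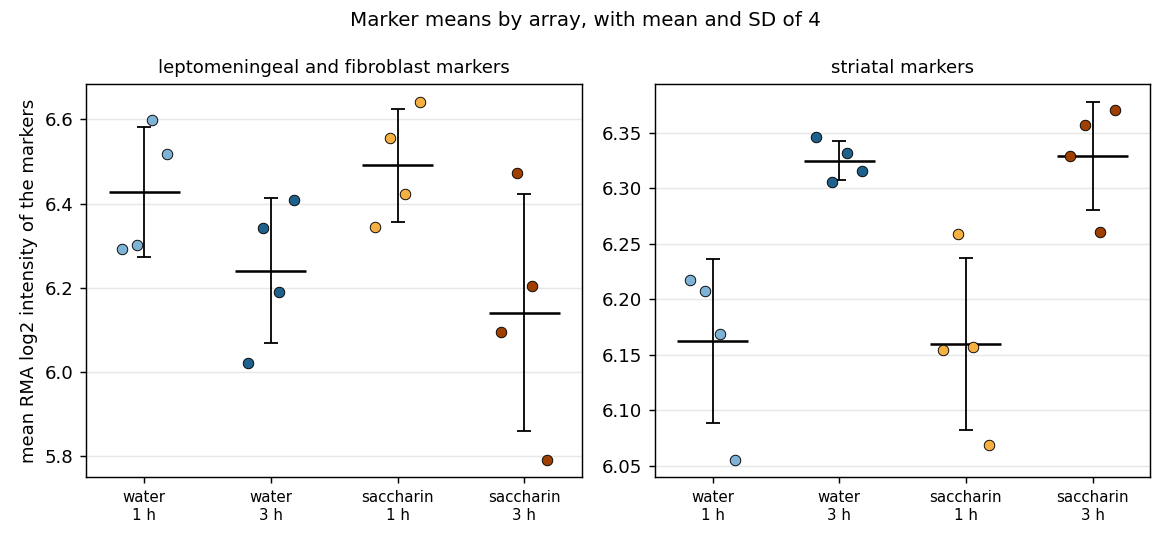
Mean log2 intensity of 12 leptomeningeal and fibroblast markers and of 7 striatal markers on every array (points), with the mean (line) and SD (bars) of 4 arrays in each group, on axes that do not start at 0. The striatal mean was higher on every 3 h array than on any 1 h array, while the leptomeningeal means overlapped.

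With the leptomeningeal mean as a covariate, Map3k14 kept its call after saccharin (0.57, adjusted p = 0.0175) and over both tastes (0.42, adjusted p = 0.0108). Map2k3 kept most of its difference after saccharin (0.48) but not its call (adjusted p = 0.138), and Map2k6 fell to 0.17 over both tastes (adjusted p = 0.399). With the striatal mean as a covariate, an alternative chosen after seeing the data, no member was called. The difference after saccharin was then 0.47 for Map3k14 (adjusted p = 0.320) and 0.36 for Map2k3 (adjusted p = 0.594), and that of Map2k6 over both tastes was 0.27 (adjusted p = 0.479). This mean separated the times on its own, and that fit called 12 of 15209 probe sets over both tastes, against 153 without it. Time and the striatal marker level cannot be told apart in these arrays.

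**Figure D5:**
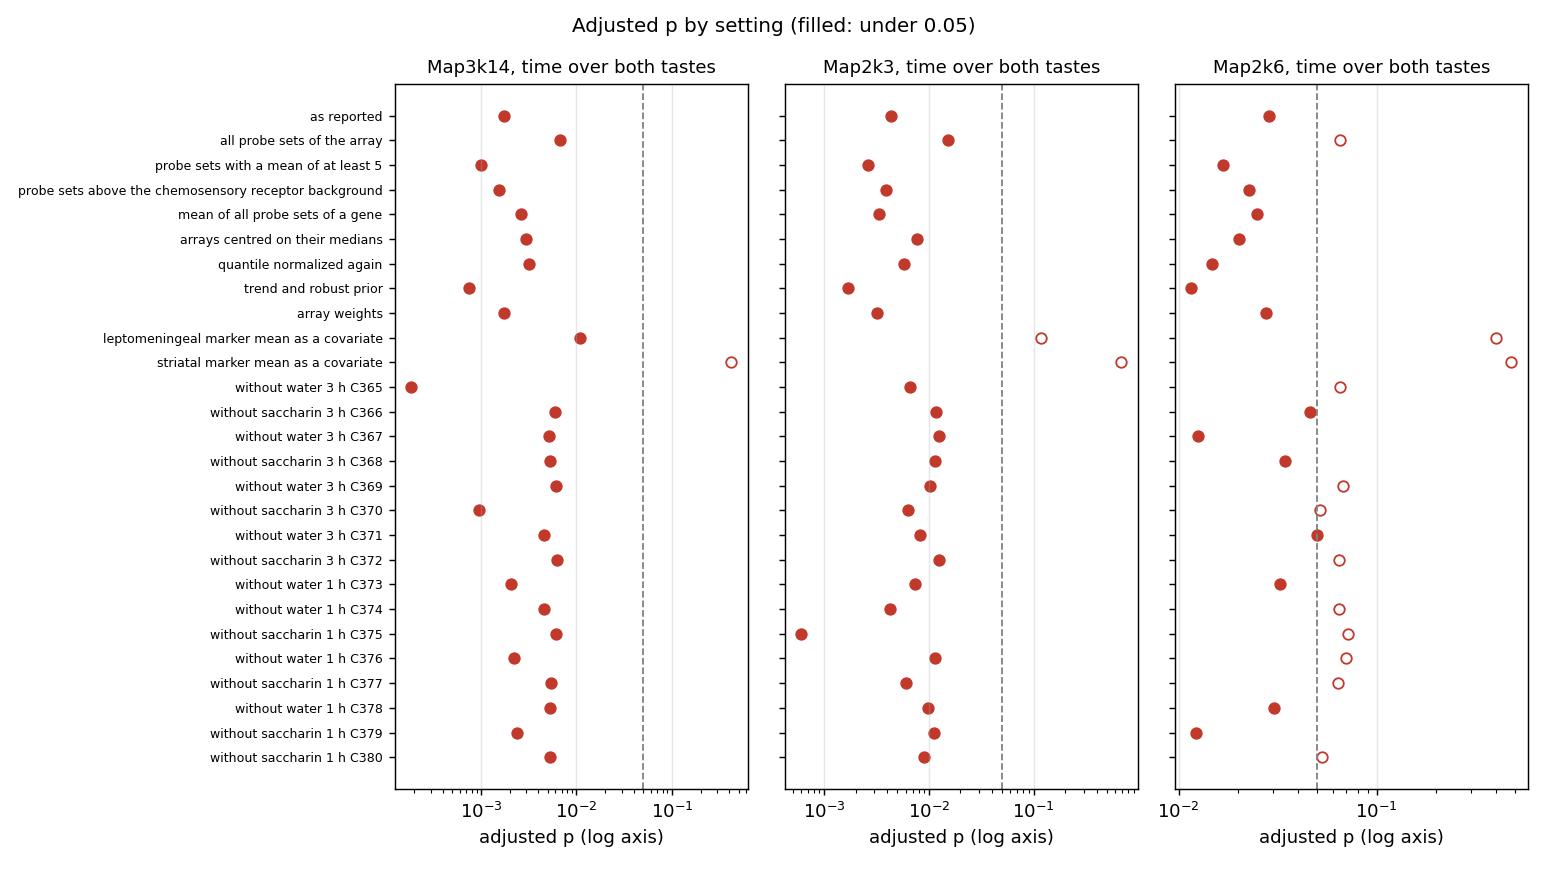
Adjusted p (log axes that differ between panels) of Map3k14, Map2k3 and Map2k6 for time over both tastes, as reported and under 26 alternatives (rows), with the threshold of 0.05 as a dashed line and filled points below it. Map3k14 passed in 25, Map2k3 in 24 and Map2k6 in 14 of the 26.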

How the data were processed

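The deposited values are log2 intensities on 16 arrays of 4 groups. The authors used the package affy (version not given in the sources used here) for quantile normalization over all chips and RMA, which sums up the probes of a probe set on the log2 scale, so values are relative and small shifts common to all genes are removed. They were used as deposited. The fit covered the 15209 of 28826 probe sets to which the array annotation gives exactly 1 gene. It gives several genes to 306, and 13311 are not listed.

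The 4 means came from a fit in limma 3.58.1 (R 4.3.3) on all 16 arrays, with an empirical Bayes prior and Benjamini-Hochberg adjustment, two-sided, and intervals cover 95%. The contrasts were 1 h minus 3 h and saccharin minus water, within and over the other factor, and their interaction. Exact permutation tests used group means (within tastes for time over both), and 4 arrays against 4 cannot give p below 0.0286. Members and gene lists were chosen with earlier results of these data known. Given in full are the members called, those with the smallest p of each tier for time over both tastes, taste or interaction, and the central kinases of the ERK, JNK and p38 arms. Fold changes on this scale can understate the change of dim genes, and the number of arrays limits the precision. Replicates are separate rats, and no replicate number was shared between groups. The fit was also run on simulated data with independent noise. These held no difference of tissue or of array number, so they cannot speak to either.

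Other settings tried were all probe sets of the array, filters on dim ones, averaged probe sets, centring and repeated normalization, the prior, array weights, the arrays of a comparison alone, marker means as covariates, the cut-off of the methods and leaving out each array. Protein sequences were not used here.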

Additional observations from a re-analysis of the deposited data

Results flagged for a closer look

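Of 136 groups of 4 arrays (34 members in 4 groups), 6 held 1 array far from the other 3, where chance gives about 1 in 20. The gap to the nearest other array exceeded the 95% critical value of Dixon's test for the range of the group. None of the 6 concerned Map3k14, Map2k3 or Map2k6.

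Water 1 h array C378 was flagged for 2 genes, each time as the lowest of its group. It read 9.22 for Map2k4, a kinase of JNK, where the other 3 read 9.34 to 9.35, and 7.61 for Map4k3, where they read 7.83 to 7.86. At water 3 h, array C371 read 10.23 for Map2k1, the ERK kinase MEK1, against 10.17 to 10.18, and array C369 read 5.78 for Map3k11, a mixed lineage kinase, against 6.00 to 6.03. At saccharin 1 h, array C377 read 6.80 for Map3k2, a kinase of the ERK5 arm, against 6.93 to 6.96. At saccharin 3 h, array C368 read 7.06 for Map2k5, the ERK5 kinase, against 6.89 to 6.90. None of these members was called in any comparison.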

How the results depend on the processing

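The differences recomputed were those with an unadjusted p under 0.05 for Map2k3, Map2k6, Map3k14, Map3k1, Map3k4, Map3k8, Map4k2 and Mapk11, and 1 of them changed sign under an alternative. This was Map3k8 over both tastes, not called at 0.12, which was -0.026 with the striatal mean as a covariate; the cause was not tested. The count of members called for time after saccharin stayed at 2 (Map2k3 and Map3k14) in all alternatives but the marker covariates, and was 1 (Map3k14) with the leptomeningeal and 0 with the striatal mean. For time over both tastes the same covariates gave 1 (Map3k14) and 0, and leaving out 1 array gave 2 to 3. The counts for time after water, taste and the interaction were 0 in all alternatives. After saccharin, Map3k14 passed in 26 and Map2k3 in 25 of 27 alternatives, with adjusted p of 7.96e-04 to 0.320 and 0.00121 to 0.594. Over both tastes Map2k6 passed in 14 of 26, with adjusted p of 0.0116 to 0.479. It was lost over all probe sets, with either covariate and without any 1 of 9 arrays, and the cause was not tested. No paired analysis was possible because the groups share no replicate number.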
